A study of Mus musculus with 7 samples.

Results

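The *Hoxa* genes with their cofactors were followed in hematopoietic progenitor cells of mice that lack HRP-2: *Hoxa5*, *Hoxa7*, *Hoxa9*, *Hoxa10*, *Hoxb4*, the cofactor genes *Meis1* and *Pbx3*, and *Mecom*. The genes were chosen by name as members of the programme that MLL controls in stem and progenitor cells, and all 8 were found by symbol among the 25033 genes of each count table. RNA was sequenced from lineage depleted (lin-) bone marrow cells of 3 *HRP-2* wild type (*HRP-2*+/+) and 4 *HRP-2* knockout (*HRP-2*-/-) mice, each library from a separate animal by its biological replicate number. The knockout mice carried the allele C57BL/6N-Hdgfrp2<tm1b (KOMP)Wtsi>/Tcp, a systemic deletion, so that non-hematopoietic cells of the marrow lacked HRP-2 as well. According to the methods, lin- cells came from femur and tibia of mice of 6 to 8 weeks and were isolated after red blood cell lysis with a progenitor isolation kit. The gene appears under its current symbol *Hdgfl2*.

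HOX proteins are homeodomain transcription factors that are coded in the clusters *Hoxa* to *Hoxd* and, in blood formation, are found in stem cells and early progenitors and are shut down as the cells mature. They bind DNA together with TALE homeodomain proteins, the MEIS and PBX families, which raise their affinity and their choice of site. The histone methyltransferase MLL keeps *Hoxa9* and *Meis1* active in progenitors and in *MLL*-rearranged leukemia, where menin and LEDGF/p75 hold the MLL complex on chromatin; HRP-2 is the relative of LEDGF/p75 that shares its chromatin-reading PWWP domain and its integrase binding domain. The comparison asks whether the level of these genes differs when HRP-2 is absent from non-leukemic progenitors.

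The libraries held 3525665 to 4490287 reads on genes in the wild type and 4355974 to 5605158 in the knockout mice. Levels are given as CPM, read counts relative to the library's total, scaled with the trimmed mean of M values (TMM), and 3 reads, the limit that a count of 0 allows, correspond to 0.561 to 0.840 CPM depending on the library. Such limits and the intervals of read shares cover counting error only. *Hdgfl2* had 228, 156 and 168 reads in the wild type mice and 13, 3, 8 and 2 reads in the knockout mice, which is 46.1 ± 3.42 CPM (SD, n = 3) against 1.29 ± 0.938 CPM (SD, n = 4). It fell by 5.09 on the log2 scale (SE 0.34, adjusted p = 1.38e-07, edgeR quasi-likelihood test). The lin- label was read against marker genes. *Mpo*, the myeloperoxidase of granulocyte-monocyte progenitors, and *Cd34* and *Ly6a* of stem and progenitor cells were abundant. The 4 adult globin genes *Hba-a1*, *Hba-a2*, *Hbb-bs* and *Hbb-bt* were listed at 0 in every mouse. The other 8 of the 12 erythroid markers had reads, with *Tfrc* the most abundant at a mean of 275 CPM. The globin zeros are therefore not read as absence of erythroid cells, and how the counting treated globin reads was not tested. *S100a8*, the most abundant of the neutrophil maturation markers, averaged 4583 CPM. Knockout replicate 3 stood apart in its sex-linked genes, with *Xist* at 0.561 CPM and *Ddx3y* at 104 CPM, while *Xist* was at 229 to 303 CPM in the other 6 mice. The labels give no sex.

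None of the 8 genes passed the test at the false discovery rate of 0.25 that the study used. Over the 11265 genes tested, 2 genes (0.0178%) passed at 0.25, *Hdgfl2* among them, and both also passed at 0.05. At 0.25 the count over all genes was 21 with DESeq2, the study's test, and 41 in edgeR without the filter on low counts. The 21 come from DESeq2 run here on the filtered genes and are not the study's own count, which was larger. Among the 8 genes, 5 had a lower mean fit and 3 a higher one in the knockout mice, with a median log2 fold change of -0.17; over all genes tested 50.2% were on the lower side and the median was -0.0014. At an unadjusted p under 0.05, there was 1 of the 8, *Hoxa5*, against 3.63% of all genes in either direction and 2.07% on the lower side. The same gene was the one of the 8 whose genotypes did not overlap, against 5.16% of all genes in either direction. Over 8 genes these shares come to less than 1 gene, and a count of 1 is not read as a difference. Of the 8 genes, 6 were above the filter on low counts, 2.23 CPM before TMM scaling, in all 7 mice, whereas *Mecom* reached it in 2 wild type and 2 knockout mice and *Hoxa10* in 2 wild type mice and 1 knockout mouse.

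**Figure D1:**
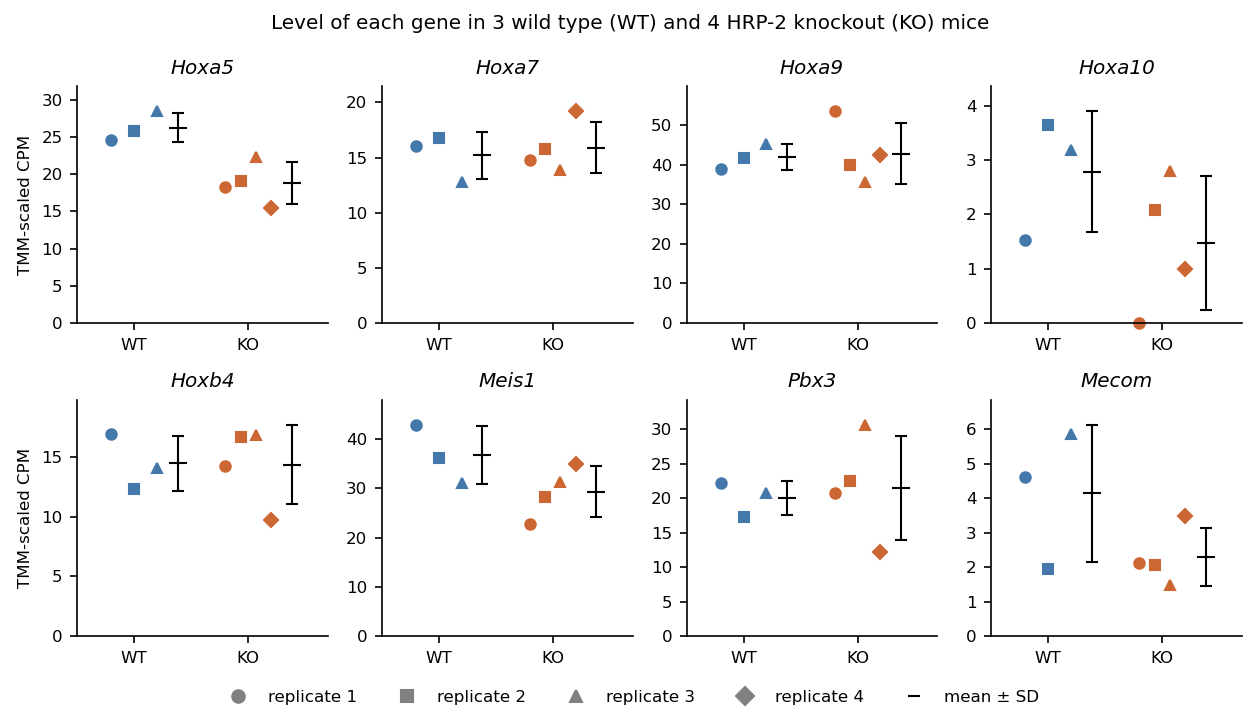
Level of the 8 genes in each mouse, as TMM-scaled CPM on a linear axis that starts at 0 and differs between panels. Symbols are mice (blue wild type, orange knockout, shape by replicate number) and bars are mean ± SD of 3 wild type and 4 knockout mice. The groups lie apart for *Hoxa5* (24.6 to 28.4 against 15.4 to 22.2 CPM) and overlap in the other 7 panels.

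The *Hoxa* members lie in one cluster on the reverse strand of chromosome 6 (GRCm38): *Hoxa5* at chr6:52201754-52204587, *Hoxa7* at chr6:52214491-52221854, *Hoxa9* at chr6:52223100-52231089 and *Hoxa10* at chr6:52231197-52240854. The windows around the start sites of *Hoxa5* and *Hoxa9* are printed because these are the *Hoxa* gene of the smallest p-value and the most abundant one, with CG pairs in capitals because the CXXC domain of MLL binds unmethylated CG pairs. Each is 300 bases, 250 before and 50 after the start, 5′ to 3′ on the reverse strand, from RefSeq on GRCm38.p6, at chr6:52204538-52204837 for *Hoxa5*, chr6:52227321-52227620 for *Hoxa9* and, for their cofactor gene, chr11:19018920-19019219 for *Meis1*.
Hoxa5: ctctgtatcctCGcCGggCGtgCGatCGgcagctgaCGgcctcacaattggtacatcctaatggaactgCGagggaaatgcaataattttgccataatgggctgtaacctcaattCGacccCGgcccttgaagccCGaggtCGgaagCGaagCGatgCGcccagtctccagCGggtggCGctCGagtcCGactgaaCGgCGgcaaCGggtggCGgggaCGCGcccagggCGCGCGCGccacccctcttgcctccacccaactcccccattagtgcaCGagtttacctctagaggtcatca
Hoxa9: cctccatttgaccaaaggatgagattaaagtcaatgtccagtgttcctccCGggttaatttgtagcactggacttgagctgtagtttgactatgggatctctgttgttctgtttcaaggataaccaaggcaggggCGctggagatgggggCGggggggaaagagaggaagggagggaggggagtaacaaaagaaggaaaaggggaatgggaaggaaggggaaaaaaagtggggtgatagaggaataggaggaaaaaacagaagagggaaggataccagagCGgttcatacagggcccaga
Meis1: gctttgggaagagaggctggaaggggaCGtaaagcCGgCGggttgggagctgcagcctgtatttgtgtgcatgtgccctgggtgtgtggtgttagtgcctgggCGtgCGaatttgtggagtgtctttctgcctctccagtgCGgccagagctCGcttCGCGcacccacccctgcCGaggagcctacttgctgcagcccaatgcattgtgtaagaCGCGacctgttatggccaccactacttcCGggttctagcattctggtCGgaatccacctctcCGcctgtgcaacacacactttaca
The *Hoxa5* window held 29 CG pairs, more than 87.1% of the 32841 windows of all genes, whose median was 7. That of *Hoxa9* held 4, more than 31.4% of them, and that of *Meis1* held 15, more than 65.4%. RefSeq windows were given for 7 of the 8 genes, 9 windows in all because *Hoxa10* and *Mecom* have 2 each, and 8 of the 9 held more CG pairs than the median. On either strand, the HOX-PBX motif TGATTNAT was in 0 of the 9 windows and in 3.22% of all windows, the MEIS and TGIF motif TGACAG was in 1 of the 9, a *Mecom* window, and in 19.2% of all, and the TATA box TATAAA was in 1, a *Hoxa10* window, and in 13.6% of all. These are counts of letters and say nothing of binding.

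*Hoxa5*, which has been linked to the choice of progenitors between myeloid and erythroid fates, was the *Hoxa* gene with the clearest separation of the genotypes. It stood at 24.6, 25.8 and 28.4 CPM in wild type replicates 1 to 3 and at 18.3, 19.1, 22.2 and 15.4 CPM in knockout replicates 1 to 4, from 62 to 119 reads per mouse. All 4 knockout mice lay below the lowest wild type mouse. The means were 26.3 ± 1.98 CPM (SD, n = 3) and 18.8 ± 2.79 CPM (SD, n = 4). The fitted difference was -0.48 on the log2 scale (SE 0.22, 95% interval -0.93 to -0.03), or 0.717 times the wild type level. In edgeR's quasi-likelihood test this had an unadjusted p of 0.0391, rank 306 of 11265, and an adjusted p of 0.999. Permuting the genotypes over all 35 splits of the mice (exact, two-sided, on log2(CPM + 1)) gave p = 0.0571, where 0.0286 is the smallest p that this design allows. The spread between mice was close to that of counting alone, which is 2.59 CPM in the wild type and 1.98 CPM in the knockout mice at this depth. Leaving out each mouse in turn gave log2 fold changes of -0.57 to -0.40. As the cells were sequenced in bulk, fewer cells of a type and less RNA per cell cannot be told apart.

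*Hoxa9*, the main HOX partner of *Meis1* in myeloid progenitors and in leukemia, was the most abundant of the 8 genes and did not separate the genotypes. Its levels were 38.8, 41.7 and 45.2 CPM in the wild type mice and 53.4, 39.9, 35.5 and 42.4 CPM in the knockout mice. The highest and the lowest mouse were both knockout mice, replicates 1 and 3. The means, 41.9 ± 3.17 CPM (SD, n = 3) and 42.8 ± 7.64 CPM (SD, n = 4), differed by 0.03 on the log2 scale (SE 0.18, 95% interval -0.36 to 0.42, adjusted p = 0.999 in edgeR). The interval in folds was 0.781 to 1.34, which overlaps that of *Hoxa5*, 0.524 to 0.982, and the difference between the genes was not tested. Among the knockout mice the SD was 7.64 CPM where counting alone gives 2.99 CPM; in the wild type mice it was 3.17 CPM beside 3.27 CPM.

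*Hoxa7*, which lies between *Hoxa5* and *Hoxa9*, had 48 to 77 reads per mouse. The levels were 16.0, 16.8 and 12.8 CPM in the wild type and 14.8, 15.8, 13.8 and 19.2 CPM in the knockout mice, and the ranges overlapped throughout. The log2 fold change was 0.06 (SE 0.25, 95% interval -0.46 to 0.58, adjusted p = 0.999 in edgeR). The antisense gene *Hoxaas3* overlaps all 500 of the last 500 exonic bases of *Hoxa7*, where 3′ end reads fall, and the strand that was counted is not stated; *Hoxaas3* was assigned 22 reads in all mice together.

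*Hoxa10*, a posterior *Hoxa* gene of progenitors and of the myeloid lineage, was near the detection limit. It had 7, 13 and 12 reads in the wild type mice and 0, 10, 15 and 4 reads in the knockout mice. In CPM this was 1.54, 3.64 and 3.19 against 0, 2.08, 2.80 and 1.00, so knockout replicate 1 had none, replicate 4 was below the lowest wild type mouse and replicates 2 and 3 were within the wild type range. The log2 fold change of -0.88 had an SE of 0.77 and a 95% interval of -2.50 to 0.74, and it was -0.46 without knockout replicate 1 and -1.56 in limma-voom. A difference of the size seen for *Hoxa5* was not detectable in *Hoxa10* at this depth.

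**Figure D2:**
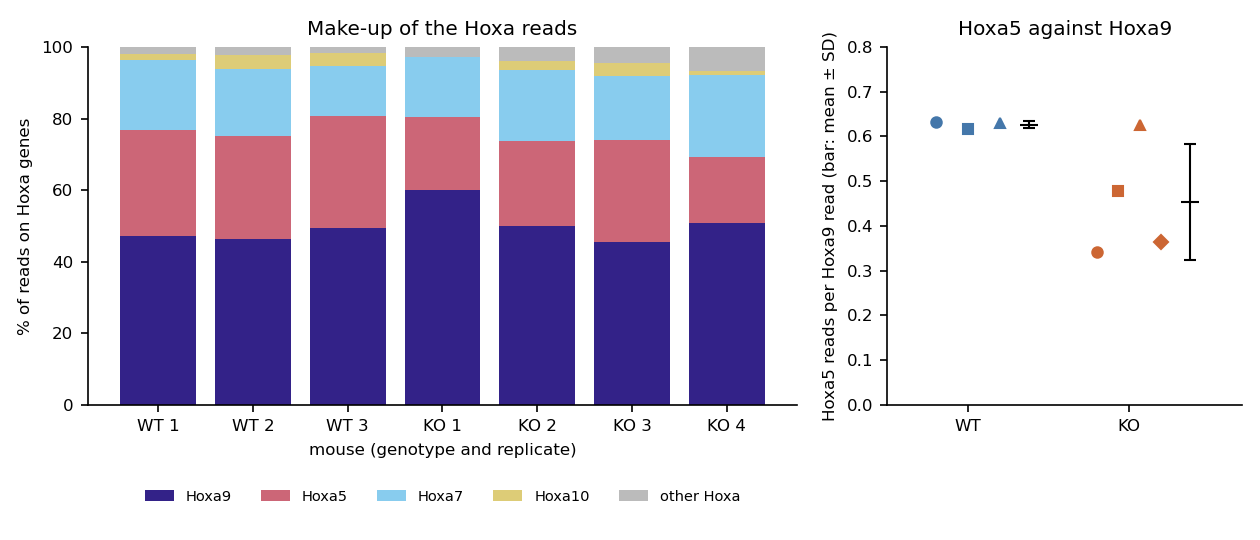
Left, reads of each *Hoxa* gene as percent of all reads on the *Hoxa* cluster, one stacked bar per mouse (WT wild type, KO knockout). Right, reads of *Hoxa5* per read of *Hoxa9* in each mouse on an axis from 0, with mean ± SD of 3 wild type and 4 knockout mice; the wild type mice lie at 0.617 to 0.633 and the knockout mice at 0.342 to 0.626.

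Reads within the cluster can be set against each other without any scaling of the libraries. *Hoxa5* took 29.8%, 28.7% and 31.2% of the *Hoxa* reads in the wild type mice and 20.5%, 23.9%, 28.5% and 18.5% in the knockout mice. All 4 knockout shares were below the wild type shares, but knockout replicate 3 (28.5% of 417 reads) lay next to wild type replicate 2 (28.7% of 321 reads), well within counting error; the exact 95% Clopper-Pearson interval of the latter was 23.8% to 33.9%. *Hoxa9* took 46.4% to 49.6% in the wild type and 45.6% to 60.0% in the knockout mice. The number of *Hoxa5* reads per *Hoxa9* read, a ratio chosen after the values were seen and therefore not tested, was 0.633, 0.617 and 0.629 in the wild type and 0.342, 0.479, 0.626 and 0.365 in the knockout mice. Here knockout replicate 3 was inside the wild type range and the other 3 were below it. Summed over its 11 genes, the cluster stood at 87.8 ± 4.67 CPM (SD, n = 3) in the wild type and 82.6 ± 4.85 CPM (SD, n = 4) in the knockout mice, with overlapping ranges of 82.5 to 91.1 and 77.9 to 89.0 CPM.

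*Hoxb4* (chr11:96318267-96321638, forward strand), whose forced expression expands stem cells in culture, stood at 16.9, 12.3 and 14.1 CPM in the wild type mice and at 14.2, 16.6, 16.8 and 9.72 CPM in the knockout mice. Wild type replicate 1 was the highest and knockout replicate 4 the lowest of the 7, and the ranges overlapped. The means were 14.4 ± 2.31 CPM (SD, n = 3) and 14.3 ± 3.30 CPM (SD, n = 4), with a log2 fold change of -0.0084 (SE 0.27, 95% interval -0.58 to 0.56, adjusted p = 0.999 in edgeR). The sign of so small a value turned with DESeq2, with its RLE scaling factors in edgeR, with the replicate block, and without wild type replicate 1, knockout replicate 1 or knockout replicate 4. *Hoxb3*, its neighbour in the cluster, had 37, 19 and 25 reads in the wild type and 6, 38, 23 and 34 reads in the knockout mice, and the *Hoxb* cluster as a whole stood at 22.4 ± 4.92 CPM (SD, n = 3) against 21.3 ± 4.44 CPM (SD, n = 4). With single mice left out, the knockout minus wild type difference of this sum ran from -3.28 to 1.71 CPM, so its sign was not settled.

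*Meis1* (chr11:18879817-19018985, reverse strand), the TALE cofactor that acts with *Hoxa9*, was the second most abundant of the 8 genes. It stood at 42.8, 36.1 and 31.1 CPM in wild type replicates 1 to 3 and at 22.7, 28.3, 31.2 and 34.9 CPM in knockout replicates 1 to 4. Knockout replicates 1 and 2 were below every wild type mouse, and knockout replicates 3 and 4 overlapped the wild type. The means of 36.7 ± 5.87 CPM (SD, n = 3) and 29.3 ± 5.13 CPM (SD, n = 4) gave a log2 fold change of -0.33 (SE 0.20, 95% interval -0.76 to 0.10, adjusted p = 0.999 in edgeR). The two-sided exact permutation p was 0.143. The value depended on wild type replicate 1, the highest mouse, without which it was -0.19. Set against *Kit*, the stem cell factor receptor, *Meis1* had 0.328 ± 0.0484 reads per *Kit* read in the wild type (SD, n = 3) and 0.306 ± 0.0350 in the knockout mice (SD, n = 4). The same ratio for *Hoxa5* was 0.236 ± 0.0304 (SD, n = 3) against 0.199 ± 0.0400 (SD, n = 4). For *Hoxa9* it was 0.377 ± 0.0522 (SD, n = 3) against 0.455 ± 0.116 (SD, n = 4). All 3 ratios overlapped between the genotypes. *Kit* itself averaged 112 CPM in the wild type and 95.4 CPM in the knockout mice, with overlapping ranges and a log2 fold change of -0.23 (SE 0.14, adjusted p = 0.999 in edgeR).

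*Pbx3* (chr2:34171457-34373142, reverse strand), the PBX partner of HOXA9 and MEIS1 in leukemia, spread widely among the knockout mice. Its levels were 22.2, 17.4 and 20.7 CPM in the wild type and 20.8, 22.4, 30.6 and 12.2 CPM in the knockout mice, so that knockout replicates 3 and 4 were the highest and the lowest of the 7. The SD of 7.56 CPM among the knockout mice compares with 2.12 CPM from counting alone. The log2 fold change was 0.10 (SE 0.27, 95% interval -0.46 to 0.67, adjusted p = 0.999 in edgeR), and without knockout replicate 3 it was -0.12.

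*Mecom* (chr3:29951296-30548008, reverse strand) codes for EVI1, a zinc finger factor needed to maintain long-term stem cells, and its RNA marks the most immature cells of the marrow. The wild type mice had 21, 7 and 22 reads (4.61, 1.96 and 5.85 CPM) and the knockout mice 11, 10, 8 and 14 reads (2.14, 2.08, 1.49 and 3.49 CPM). Wild type replicate 2 was within the knockout range and the other 2 wild type mice were above it. The log2 fold change of -0.86 had an SE of 0.56 and a 95% interval of -2.03 to 0.31 (adjusted p = 0.999 in edgeR); leaving out wild type replicate 3 it was -0.54.

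In the order of wild type level, *Hoxa9* and *Meis1* came first, followed by *Hoxa5*, *Pbx3*, *Hoxa7*, *Hoxb4*, *Mecom* and *Hoxa10*. A 3′ end library gives 1 fragment per transcript, so that CPM of different genes are read as transcripts without a correction for length. Neighbours whose wild type ranges overlapped were *Hoxa9* and *Meis1*, *Hoxa7* and *Hoxb4*, and *Mecom* and *Hoxa10*. *Hoxa9* was above *Meis1* in 6 of 7 mice, *Meis1* above *Hoxa5* in 7 of 7, and *Hoxa5* above *Pbx3* in 4 of 7, all 3 wild type mice and 1 knockout mouse. The 5 *Hox* members held 85.0% to 94.0% of all *Hox* reads of a mouse, 393 to 557 reads, and *Hoxc* and *Hoxd* genes together had at most 9 reads in a mouse.

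**Figure D3:**
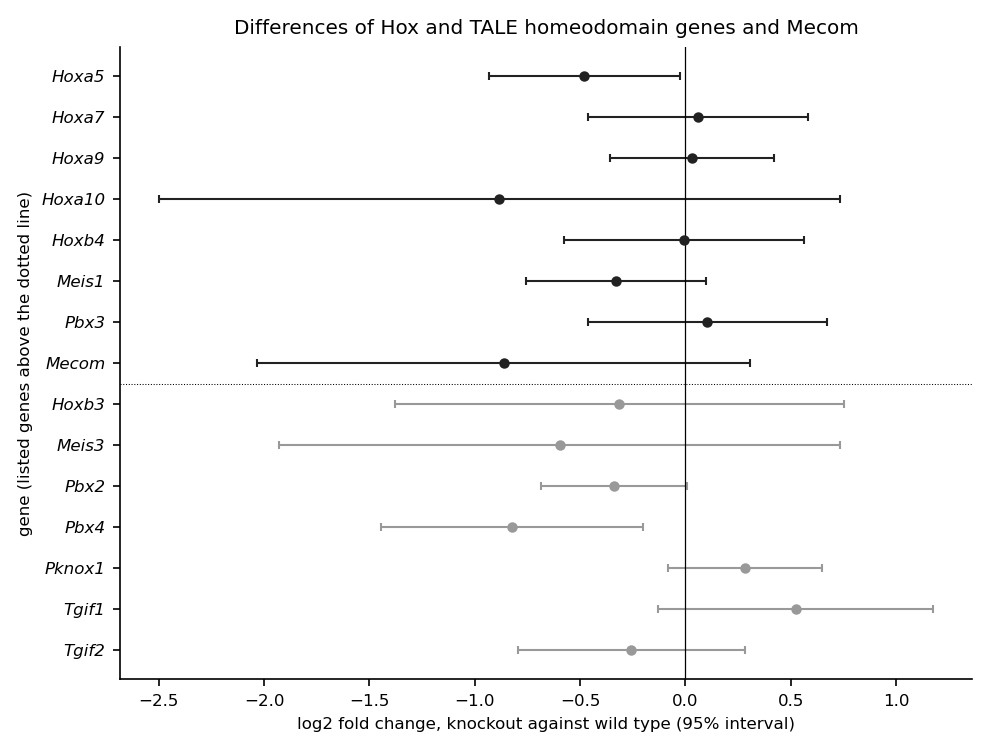
Log2 fold change of knockout against wild type mice from edgeR's quasi-likelihood fit, with 95% intervals, for the 8 genes (black, above the dotted line) and 7 other *Hox* and TALE homeodomain genes that were tested (grey). The intervals of *Hoxa5* and *Pbx4* lie below 0 before adjustment, and the other 13 include 0.

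The rest of the *Hox* clusters and of the TALE family was read from fixed lists of 44 further genes, of which 8 passed the filter on low counts, 6 with a lower and 2 with a higher fitted level. None passed at an adjusted p of 0.25. Among the PBX genes, *Pbx4* stood at 22.8, 14.8 and 12.2 CPM in the wild type and at 7.97, 10.2, 7.85 and 12.0 CPM in the knockout mice. The groups did not overlap, although the highest knockout mouse was next to the lowest wild type mouse. Its log2 fold change was -0.82 (SE 0.30, 95% interval -1.44 to -0.20, unadjusted p = 0.0125 and adjusted p = 0.999 in edgeR); without wild type replicate 1 it was -0.51. *Pbx2* did not overlap either, with 59.0, 51.2 and 56.6 CPM against 42.2, 41.6, 51.0 and 41.4 CPM and a log2 fold change of -0.34 (SE 0.16, unadjusted p = 0.0559, adjusted p = 0.999 in edgeR). Thus 2 of the 9 TALE genes tested, *Meis1* and *Pbx3* included, were without overlap and lower, where 2.79% of all genes were.

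The other TALE families went both ways. *Pknox1* (PREP1), a MEIS relative that competes for PBX partners, had a mean of 44.2 ± 7.14 CPM (SD, n = 3) in the wild type and 53.7 ± 5.76 CPM (SD, n = 4) in the knockout mice. *Tgif1*, a repressor that binds the same DNA letters as MEIS, had 19.5 ± 7.42 and 28.1 ± 10.5 CPM (SD, n = 3 and n = 4), and *Tgif2* 17.8 ± 3.79 and 15.0 ± 2.91 CPM (SD, n = 3 and n = 4). All 3 overlapped between the genotypes. *Meis3* was low at 2.89 ± 1.49 against 1.86 ± 1.13 CPM (SD, n = 3 and n = 4), and *Meis2* was listed at 0 in every mouse. Of the *Hoxa* genes under the filter, *Hoxa4* had 7, 2 and 5 reads in the wild type mice and 12, 7, 7 and 18 reads in the knockout mice. *Hoxa13* was listed at 0 throughout.

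A second list held 24 further targets of MLL or of HOX and MEIS, and 21 of them were tested. Of these, 14 had a lower and 7 a higher fitted level in the knockout mice, with a median log2 fold change of -0.19 beside -0.0014 for all genes, and 0 passed at an adjusted p of 0.25 in edgeR, in DESeq2 and in limma-voom; 1 had an unadjusted p under 0.05 in edgeR, against 3.63% of all genes. That gene was *Lmo2*, the bridging factor of the stem cell complex with TAL1. It stood at 150.1, 174 and 156 CPM in the wild type and at 123, 139, 132 and 134 CPM in the knockout mice, without overlap. The log2 fold change was -0.28 (SE 0.13, unadjusted p = 0.0463, adjusted p = 0.999 in edgeR), and the two-sided exact permutation p was 0.0286, the smallest that 35 splits can give.

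The next 4 by p-value overlapped between the genotypes. *Msi2*, an RNA-binding protein of stem cells, had a mean of 62.5 ± 7.46 CPM (SD, n = 3) in the wild type and 52.1 ± 5.35 CPM (SD, n = 4) in the knockout mice. *Runx1*, a core factor of blood formation, had 137 ± 15.1 and 119 ± 12.8 CPM (SD, n = 3 and n = 4). *Gata2*, needed for the stem cell pool, had 194 ± 47.8 and 148 ± 52.2 CPM (SD, n = 3 and n = 4). *Zeb2*, a repressor in myeloid and dendritic cell development, was the one on the higher side with 65.4 ± 20.5 and 77.8 ± 10.4 CPM (SD, n = 3 and n = 4).

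**Figure D4:**
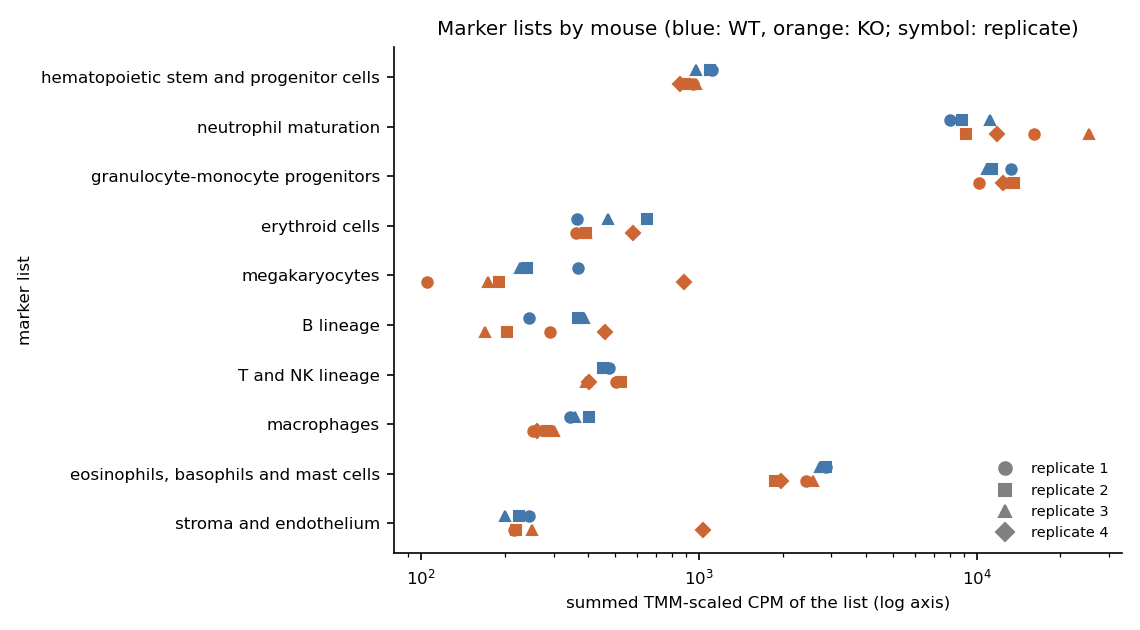
Summed CPM of 10 marker lists in each mouse on a log axis (blue wild type, orange knockout, shape by replicate number). The genotypes lie apart for macrophages, for eosinophils, basophils and mast cells and, narrowly, for stem and progenitor cells (975 to 1118 against 858 to 973 CPM), and knockout replicate 4 lies far above the others for megakaryocytes and stroma.

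Because the genes are markers of immature cells, the makeup of the samples is given beside them. The 15 stem and progenitor markers summed to 975 to 1118 CPM in the wild type and 858 to 973 CPM in the knockout mice, and 10 of the 12 tested were lower. *Cd34* overlapped, with 226 ± 45.0 and 222 ± 42.6 CPM (SD, n = 3 and n = 4), as did *Ly6a* (SCA-1) with 135 ± 56.4 and 122 ± 42.3 CPM (SD, n = 3 and n = 4). The 12 neutrophil genes all had a higher fitted level in the knockout mice, with sums of 8037 to 11185 against 9118 to 25345 CPM, and the highest sum was that of knockout replicate 3, the knockout mouse with the highest *Hoxa5* and *Pbx3*. The granulocyte-monocyte progenitor genes summed to 10889 to 13240 and 10206 to 13639 CPM.

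Among the other lineages, the 9 markers of eosinophils, basophils and mast cells were all lower (sums of 2736 to 2863 against 1885 to 2571 CPM), and so were the 7 of macrophages (344 to 400 against 252 to 299.7 CPM). Erythroid sums were 364 to 650 and 360 to 579 CPM, B lineage sums 245 to 385 and 169 to 459 CPM, and T and NK sums 452 to 476 and 391 to 523 CPM. Megakaryocyte genes reached 886 CPM in knockout replicate 4 beside 105 to 190 in the other knockout mice and 227 to 368 CPM in the wild type. Stroma and endothelium reached 1032 CPM in the same mouse beside 201 to 252 CPM in the other 6. Of the listed genes under the filter on low counts, 13 had at least 10 reads in all and 4 of these did not overlap between the genotypes, beside 5.08% of all genes of that kind. No gene of these lists that was tested passed at an adjusted p of 0.25. The part of these shifts in the values of *Hoxa5*, *Meis1* and *Mecom* was not tested. Without knockout replicate 3, *Hoxa5* had a log2 fold change of -0.57, and without knockout replicate 4 it was -0.40.

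The genes whose level followed *Hoxa9* most closely over the 7 mice, by Pearson's r of log2(CPM + 1), were *Mycl* (r = 0.986), a MYC family gene, *Pwwp3a* (r = 0.981), *Abi1* (r = 0.972), an actin regulator, *Cyb5rl* (r = 0.969) and *Smug1* (r = 0.965), a uracil-DNA glycosylase. Those closest to *Hoxa5* were *Rbm12b1* (r = 0.967), *Def8* (r = 0.952), *Ccdc8* (r = 0.947), *Plcb4* (r = 0.945), a phospholipase C, and *Star* (r = 0.945), the cholesterol carrier of steroid synthesis. The 8 genes themselves were left out of the search. Of 11257 genes searched, 34 had r above 0.9 with *Hoxa9* and 30 with *Hoxa5*, and as the points are 7 mice that share the scaling of their libraries, these are descriptions.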

How the data were processed

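Count tables of 7 lin- bone marrow libraries were used, 3 wild type and 4 knockout mice grouped by their genotype labels. According to the methods and labels, the authors made QuantSeq 3′ end libraries from 500 ng of RNA, aligned reads to GRCm38 with STAR and tested with DESeq2. The deposited values are raw read counts per gene symbol with 5 tally rows, which were left out (27.0% to 31.6% of reads fell on no feature). The strand setting is not given in the sources used here.

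In R 4.3.3, edgeR 4.0.16 gave TMM factors, the filterByExpr filter, CPM and the robust quasi-likelihood test over 11265 genes with Benjamini-Hochberg adjustment. DESeq2 1.42.0 and limma-voom (limma 3.58.1), other scaling factors, filters, leaving out the ribosomal *Rn45s* (4.94% to 20.6% of reads), a replicate block and each mouse left out were alternatives. SE is the log2 fold change divided by the square root of F. Single genes also had an exact permutation test (two-sided, on log2(CPM + 1)). Coordinates are from GENCODE on GRCm38. The edgeR step was tested on simulated data. Replicates differed by more than sampling noise (chi-square per degree of freedom 7.80 to 48.9).

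The members and lists were chosen with earlier results of these data known. Named were the members, other *Hox* and TALE genes, the 5 targets of smallest p, the 3 most abundant progenitor markers, markers at 0 or most abundant in their list, and the 5 genes most like *Hoxa9* and *Hoxa5*. *Kit*, a progenitor marker outside these rules, was named as the base of read ratios. Some genes of the lists enter the counts and sums but are not reported here by name.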

Additional observations from a re-analysis of the deposited data

Results flagged for a closer look

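In a group of 4 mice, a value was set apart when its gap to the nearest mouse divided by the range was above Dixon's critical value at the 95% level. Of 40 values of the knockout mice tested, 5 met this, where chance gives about 2.0. *Pbx2* was at 51.0 CPM in knockout replicate 3 and at 41.4 to 42.2 CPM in the other 3. The *Hoxd* cluster sum was 0.187 CPM in knockout replicate 3, a single read, and 0 in the others. Knockout replicate 4 was set apart in 3 marker sums, erythroid cells (579 CPM beside 360 to 392), megakaryocytes (886 CPM beside 105 to 190) and stroma and endothelium (1032 CPM beside 215 to 252). None of the 8 genes themselves was set apart.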

How the results depend on the processing

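Of the 8 genes, none that had an adjusted p was called under any of the 16 alternatives, and *Hoxa5*, *Hoxa10*, *Meis1* and *Mecom* stayed on the lower side in each that could be fitted. *Hoxa5* ranged from -0.57 to -0.40 on the log2 scale, with unadjusted p of 0.0247 to 0.130. Over all genes, 2 calls became 21 with DESeq2, 41 without a filter on low counts, 1 with the replicate block, and 2 to 7 with single mice left out. The count of the 8 without overlap, 1, became 2 with library totals in place of TMM, which added *Meis1*, and ranged from 1 to 2 with single mice left out (*Hoxa10* without wild type replicate 1, *Mecom* without replicate 2, *Meis1* without replicate 3). Signs turned for values near 0: *Hoxb4* was 0.00034 with DESeq2, 0.00026 with RLE factors and 0.14 with the replicate block, and *Hoxa7* was -0.032 with the block. With single mice left out, *Hoxb4* ran from -0.11 to 0.13, *Hoxa7* from -0.049 to 0.14, *Hoxa9* from -0.092 to 0.11 and *Pbx3* from -0.12 to 0.29. *Cd34* ran from -0.17 to 0.15 and *Ly6a* from -0.41 to 0.26. *Hoxb3*, at -0.31 in the main fit and so not near 0, ran from -0.60 to 0.028. It was above 0 only without knockout replicate 1, the mouse with 6 *Hoxb3* reads. The cause of these turns was not tested. Same-numbered mice did not deviate together (r = -0.02, -0.21 and -0.16, on levels centred within each genotype). So few pairs cannot exclude a shared litter or batch, and the methods name no pairing. The replicate block changed no call of the 8. *Hoxa10* and *Mecom* were not tested at a mean of 5 CPM, nor *Hoxa10* without knockout replicate 3, and DESeq2 gave *Hoxa10* no adjusted p. Depth limits both genes.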

Other observations

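Some genes of the lists were under the filter on low counts, and 13 of these had at least 10 reads in all. In 4 of the 13 the genotypes did not overlap, beside 5.08% of the 2401 genes of that kind, and 3 are named here after their values were seen. *Fgd5*, a gene of long-term stem cells and endothelium, had 5, 11 and 6 reads in the wild type and 0, 0, 2 and 0 reads in the knockout mice. *Slamf1* (CD150), the surface marker of stem cells, had 9, 7 and 8 reads against 2, 6, 2 and 2. *Meg3*, an imprinted non-coding RNA, had 6, 3 and 3 reads against 0, 0, 2 and 0. In edgeR's quasi-likelihood test without the filter, the adjusted p was 0.791 for *Fgd5* and 0.949 for *Meg3* and *Slamf1*.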
